A study of Mus musculus with 12 samples.

Results

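The genes described here are 9 genes of monocyte recruitment: the chemokine receptor Ccr2, its ligands Ccl2, Ccl7 and Ccl12, the surface antigen Ly6c2, the colony-stimulating factors Csf1 and Csf2, and the receptor Cx3cr1 with its ligand Cx3cl1. They were taken as the rows carrying these symbols in a count table of 23282 genes over 12 tumors, and each symbol was found once. They were selected on measured values, since Ccr2 was among the genes seen to differ in the combination group of these same tumors. The levels of Ccr2 in that group are therefore given as a description, with no test. A count was present in at least 1 tumor for 8 of the 9 genes, and the same 8 were among the 13464 genes that passed the filter on low counts, whereas Csf2 had no count in any tumor.

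Classical monocytes of the mouse carry high surface Ly6C and the receptor CCR2. CCL2, CCL7 and CCL12 bind CCR2, and CCR2 is needed for these cells to leave the bone marrow and enter inflamed tissue and tumors, where they can become macrophages and dendritic cells. CSF1 (M-CSF), which signals through the receptor CSF1R, sustains monocytes and macrophages, and CSF2 (GM-CSF) acts on granulocytes, macrophages and dendritic cells. CX3CR1 is high on non-classical monocytes and on many tissue macrophages, and its ligand CX3CL1 (fractalkine) is made as a membrane protein that can be shed.

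The tumors were grown subcutaneously from MC38, a mouse colon carcinoma line, in the flank of wild-type female C57BL/6 mice labelled as 6 weeks old, and RNA was taken on day 19. There were 4 groups of 3 tumors. Control mice (Con) were given saline containing DMSO and Tween, and an IgG2a antibody that the SFIH mice also received. SFIH mice received SFIH, a fraction of the plant Inula helenium rich in sesquiterpene lactones, by intraperitoneal injection at 50 mg/kg each day, PD mice received 200 μg of antibody to the checkpoint receptor PD-1 on a twice-weekly schedule, and Comb mice received both agents. The comparisons ask how each treatment alone, and both together, altered the tumor transcriptome. The samples were whole tumor tissue, so for every gene below fewer cells of a type and less RNA per cell cannot be told apart. Cells were injected at a single site per mouse, so separate tumors come from separate mice, although the labels give only a replicate number and do not tie a library to a mouse.

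Each library held between 7870741 and 12261032 counts. Although the samples are labelled as tumor cells, the summed level of 8 macrophage marker genes (Adgre1, Cd68, C1qa, C1qb, C1qc, Mrc1, Csf1r and Fcgr1) lay between 547 and 14444 CPM (each tumor's counts relative to its total, scaled by the trimmed mean of M-values, TMM). The epithelial genes Krt8, Krt18, Krt19, Epcam and Cdh1 together reached 2.50 to 114 CPM, and Epcam was at 0 in 3 tumors. Comb replicate 3 stood apart from the other libraries. Its mean chi-square per gene was 408 and 292 against the other Comb tumors, compared with at most 62.7 between any other tumors of 1 group. It also had the highest summed levels of skeletal muscle genes (6050 CPM, against 3.54 to 592 CPM elsewhere), macrophage genes (14444 CPM, against 547 to 3931 CPM) and keratinocyte genes (251 CPM, against at most 24.9 CPM). The main results in which Comb tumors enter are given with and without this tumor, and the part of those other cell types in them was not tested.

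Ccr2 separated the tumors that had been given the PD-1 antibody from those that had not. Its level was 34.2, 22.9 and 34.2 CPM in the 3 Con tumors and 40.6, 29.0 and 31.7 CPM in the 3 SFIH tumors. In the PD tumors it was 66.9, 79.8 and 58.3 CPM, and in the Comb tumors it was 95.7, 88.6 and 345 CPM. All 6 tumors that had received the antibody therefore lay above all 6 that had not, and Comb replicate 3 was the highest of the 12. These levels rest on 228 to 2877 counts per tumor.

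In the PD tumors the mean Ccr2 level was 68.4 ± 10.8 CPM (SD, n = 3) against 30.4 ± 6.53 CPM in Con, a log2 fold change of 1.17 (SE 0.46, 95% confidence interval 0.17 to 2.17), or 2.25-fold. This comparison did not use the group in which Ccr2 was picked, but it shares the Con tumors with the contrast that picked it, and its error comes from a fit over all 4 groups. Without Comb replicate 3 the unadjusted p in edgeR was 6.97e-05 and the adjusted p 0.23. The quasi-likelihood test of edgeR gave an unadjusted p of 0.026 and an adjusted p of 1 (Benjamini-Hochberg), and the adjusted p over the alternatives ran from 0.000184 (DESeq2 without Comb replicate 3) to 1, with 0.0412 in limma-voom. An exact permutation test on log2(CPM + 1) gave p = 0.1, the smallest value that 3 tumors against 3 can give. Other cell type markers moved with this difference, since the summed macrophage genes were 982 to 1948 CPM in PD against 547 to 928 CPM in Con tumors, 8 T cell genes were 43.1 to 120 CPM against 24.0 to 40.5 CPM, and 6 fibroblast genes were 4064 to 6755 CPM against 2119 to 2591 CPM, and their part in the result was not tested. In the SFIH tumors the Ccr2 level of 33.8 ± 6.08 CPM (SD, n = 3) differed from Con by a log2 fold change of 0.15 (SE 0.45, interval −0.84 to 1.14; edgeR adjusted p = 1, with 0.877 to 1 over the alternatives), so changes of either sign lie within the interval.

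As a description, the Comb mean of Ccr2 was 176 ± 146 CPM (SD, n = 3). It was higher than Con by 2.54 on the log2 scale, a 5.81-fold difference, and this became 1.60 without Comb replicate 3. Against the PD tumors the log2 difference was 1.37 with that tumor and 0.43 without it, so the gap between both antibody-treated groups was carried largely by 1 library. Against the SFIH tumors it was 2.39 with and 1.45 without it.

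**Figure D1:**
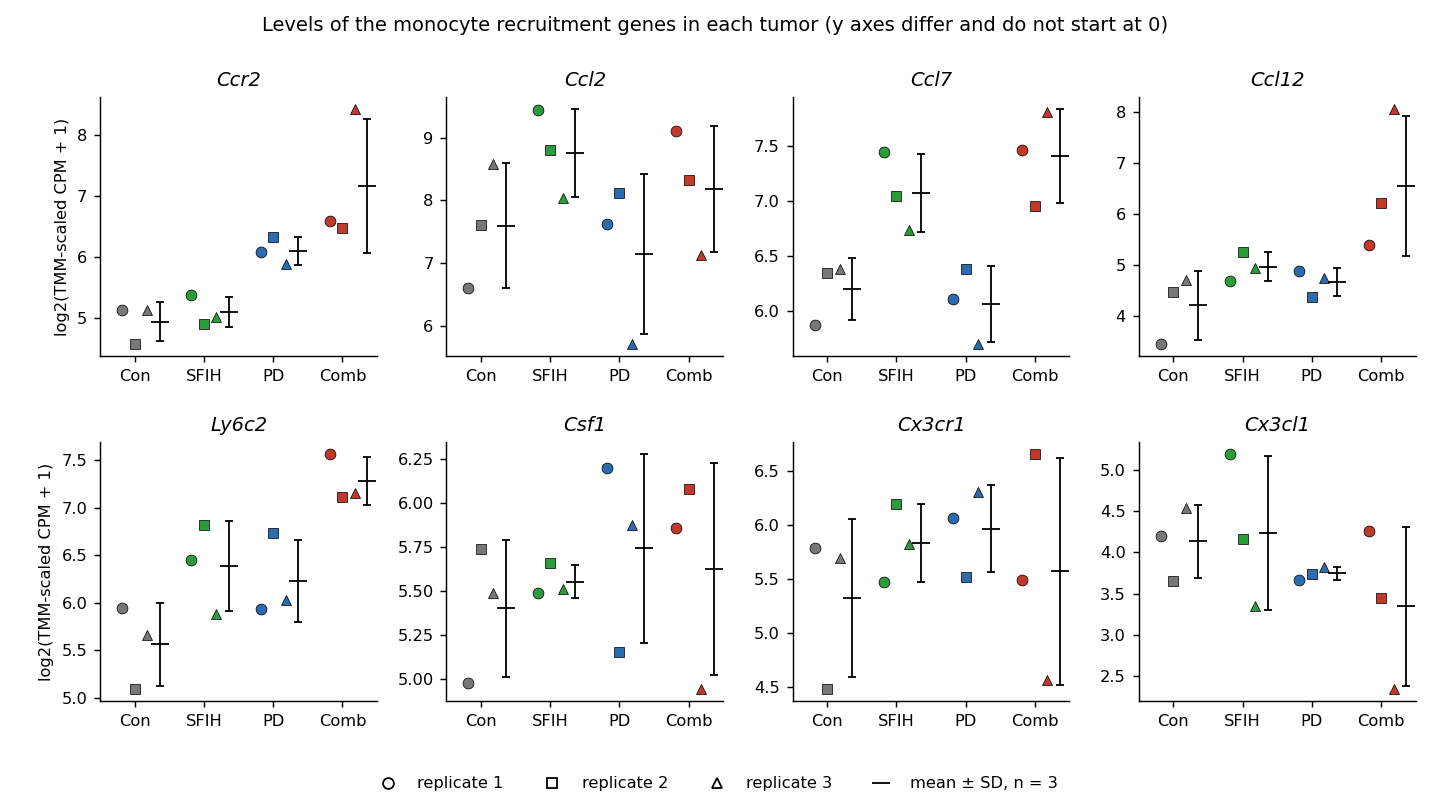
Level of each member that had counts, as log2(TMM-scaled CPM + 1) on the vertical axis for the 4 groups, with 1 point per tumor (shape marks the replicate) and the mean ± SD (n = 3) beside it; axes differ between panels and do not start at 0. Ccr2 separates the 6 antibody-treated tumors from the other 6, Ccl7 separates the 6 SFIH-treated tumors from the other 6, and Csf1, Cx3cr1 and Cx3cl1 overlap in all groups.

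The positions of the members in the mouse genome place several of them side by side. In the RefSeq annotation of GRCm38.p6, Ccr2 lies on chromosome 9 beside the receptor gene Ccr3, and Cx3cr1 lies on the same chromosome beside Ccr8. Ccl2, Ccl7 and Ccl12 lie in a cluster on chromosome 11 in the order Ccl2, Ccl7, Ccl11, Ccl12 and Ccl8. Ly6c2 adjoins its close relative Ly6c1 on chromosome 15, Csf1 is on chromosome 3, Csf2 is beside Il3 on chromosome 11, and Cx3cl1 is on chromosome 8 between Ccl22 and Ccl17. A RefSeq promoter was matched for 7 of the 9 genes. The 160 bases before the start of transcription are shown for Ccr2, Ccl12 and Ly6c2, whose Comb tumors all lay above all Con tumors, and for Csf1, whose groups overlapped. They lie at chr9:124102023-124102182 (plus strand), chr11:82101685-82101844 (plus strand), chr15:75111972-75112131 (minus strand) and chr3:107760470-107760629 (minus strand), with the first of 2 listed starts used for Ly6c2, and capitals mark matches to the searched motifs.
Ccr2: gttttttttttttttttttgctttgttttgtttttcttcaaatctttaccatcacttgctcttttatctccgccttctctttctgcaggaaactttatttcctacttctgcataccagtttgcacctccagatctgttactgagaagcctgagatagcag
Ccl12: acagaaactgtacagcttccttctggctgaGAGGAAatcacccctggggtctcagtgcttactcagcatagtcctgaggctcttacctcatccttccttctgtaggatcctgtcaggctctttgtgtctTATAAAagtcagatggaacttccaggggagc
Ly6c2: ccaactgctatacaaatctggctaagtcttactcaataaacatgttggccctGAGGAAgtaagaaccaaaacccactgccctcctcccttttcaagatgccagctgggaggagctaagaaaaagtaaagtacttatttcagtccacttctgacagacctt
Csf1: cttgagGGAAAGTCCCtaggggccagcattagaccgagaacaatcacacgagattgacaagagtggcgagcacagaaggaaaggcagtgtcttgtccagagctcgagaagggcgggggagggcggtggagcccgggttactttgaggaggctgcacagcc

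The motifs searched on both strands were the TATA box TATAAA, the PU.1/Ets core GAGGAA, the STAT element TTCNNNGAA, the interferon element GAAANNGAAA, the AP-1 element TGANTCA and the NF-κB consensus. Ccl12 held the TATA box and the Ets core, Ly6c2 the Ets core, and Csf1 the NF-κB consensus on the opposite strand, while none of these letters occurred in the Ccr2 window. The TATA box and the Ets core (at 2 places) also occurred in the window of Cx3cl1, whose groups overlapped. Among 32851 mouse promoters of the same length, 8.01% held the TATA box, 15.3% the Ets core, 4.95% the NF-κB consensus, 4.36% the STAT element, 1.72% the interferon element and 4.53% the AP-1 element. The 3 windows of genes that were high in Comb tumors thus had no motif in common among these 6. A match is a string of letters and says nothing of binding in these tumors.

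Ccl7, also called MCP-3, separated the tumors by SFIH. It was at 57.8, 80.7 and 82.6 CPM in Con tumors and at 173, 131 and 106 CPM in SFIH tumors. It was at 68.4, 82.5 and 51.0 CPM in PD tumors and at 176, 123 and 224 CPM in Comb tumors. Every tumor that had received SFIH, alone or with the antibody, thus had more Ccl7 than every tumor that had not. The summed level of 5 adipocyte genes was 46.7 to 78.2 CPM in SFIH against 32.8 to 40.8 CPM in Con tumors, and 38.8 to 1092 CPM in Comb against 36.6 to 52.4 CPM in PD tumors. For any SFIH, 3 of 3 tested adipocyte genes, 6 of 6 skeletal muscle genes and 7 of 8 macrophage genes were higher at an unadjusted p under 0.05 in edgeR (9.11% of all genes), and 3, 1 and 1 without Comb replicate 3. Their part in the Ccl7 result was not tested.

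Pooled over both pairs of groups, Ccl7 was 2.19-fold higher with SFIH than without, a log2 fold change of 1.13 (SE 0.20, interval 0.70 to 1.57) that became 1.02 without Comb replicate 3. The exact permutation test over 6 against 6 tumors gave p = 0.00216, the smallest that its 924 divisions can give, since 6 of 6 tumors lay above all others. edgeR gave p = 0.000133 before adjustment and 0.313 after it, DESeq2 gave an adjusted p of 0.000208, and the adjusted p ran from 3.22e-05 to 0.529 over the alternatives. Within each pair the log2 fold change was 0.89 for SFIH against Con (SE 0.28, edgeR adjusted p = 1, with 0.0353 to 1 over the alternatives) and 1.37 for Comb against PD (SE 0.28, edgeR adjusted p = 0.243, with 0.00373 to 0.546 over the alternatives). The difference between these 2 effects, the interaction, was 0.48 (SE 0.39, edgeR adjusted p = 0.894) and became 0.26 without Comb replicate 3. For the antibody alone the log2 fold change of Ccl7 was −0.13 (SE 0.28, interval −0.74 to 0.48), and it turned to 0.026 without PD replicate 3.

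**Figure D2:**
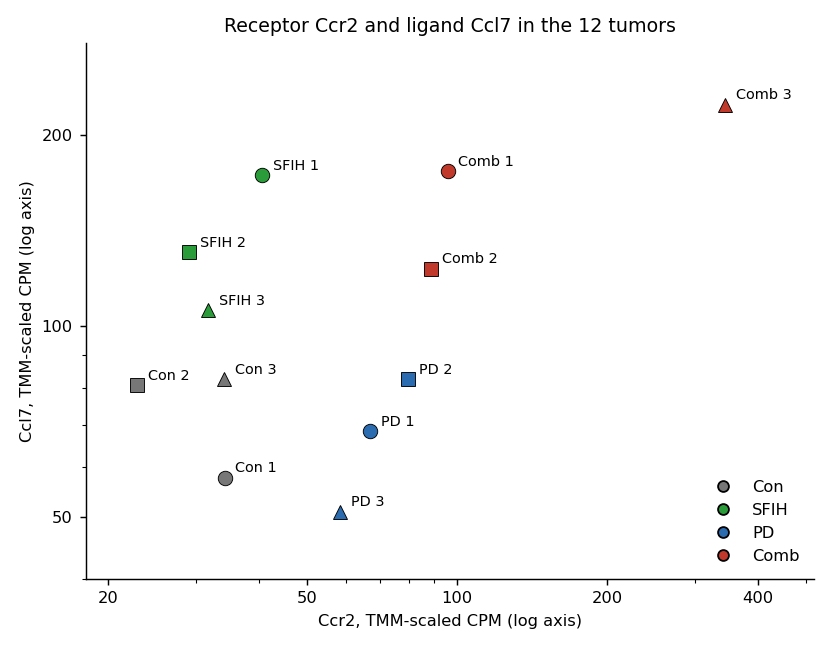
Level of Ccl7 (vertical, TMM-scaled CPM, log axis) against the level of Ccr2 (horizontal, TMM-scaled CPM, log axis), with 1 point per tumor coloured by group. The 6 tumors given the antibody lie to the right of the other 6, the 6 tumors given SFIH lie above the other 6, and only the 3 Comb tumors are high on both.

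Ccl2, the main monocyte chemoattractant MCP-1, varied more within groups than Ccl7. Its level was 96.5, 194 and 383 CPM in Con, 695, 443 and 262 CPM in SFIH, 197, 275 and 51.3 CPM in PD, and 549, 318 and 138 CPM in Comb tumors. The groups overlapped in each comparison, and Comb replicate 3, the tumor with the most Ccr2, had the lowest Ccl2 of its group. For any SFIH against none, Ccl2 had a log2 fold change of 0.999 (SE 0.48, interval −0.06 to 2.06; edgeR adjusted p = 0.356, with 0.0732 to 0.568 over the alternatives; exact permutation p = 0.0758), or 1.18 without Comb replicate 3. For PD against Con it was −0.36 (SE 0.68), a sign that reversed when either Con replicate 3 or PD replicate 3 was left out. Without strand information, which the sources used here do not state, counts of Ccl2 and of the overlapping opposite-strand gene Gm17268 cannot be separated.

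Ccl12, or MCP-5, was the least abundant of the ligands outside the Comb group. It was at 9.82, 21.2 and 24.9 CPM in Con, 24.8, 37.1 and 29.7 CPM in SFIH, 28.5, 19.6 and 25.8 CPM in PD, and 40.8, 72.8 and 267 CPM in Comb tumors. All 3 Comb tumors lay above the other 9, with the highest value again in replicate 3. The log2 fold change for Comb against Con was 2.77 (SE 0.61, edgeR adjusted p = 0.0665, DESeq2 adjusted p = 0.000188, with 0.000188 to 0.241 over the alternatives), or 6.82-fold, and was 1.61 without Comb replicate 3. Against PD it was 2.37 (SE 0.60, edgeR adjusted p = 0.243, DESeq2 adjusted p = 0.0107, with 0.0107 to 0.546 over the alternatives) and 1.20 without that tumor, where DESeq2 gave an adjusted p of 0.164. The SFIH and PD tumors differed from Con by 0.71 (SE 0.58) and 0.40 (SE 0.58) on the log2 scale, each with an edgeR adjusted p of 1. The interaction, which compares the SFIH effect with and without the antibody, was 1.65 (SE 0.82, edgeR adjusted p = 0.894) and 0.49 without Comb replicate 3.

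Added together, the 3 ligands reached 164, 296 and 491 CPM in Con, 893, 611 and 397 CPM in SFIH, 293, 377 and 128 CPM in PD, and 765, 515 and 629 CPM in Comb tumors. On the log2 scale the sum was higher by 1.21 in tumors given SFIH than in those not given it (exact permutation p = 0.00433, 0.0909 after Benjamini-Hochberg adjustment over 21 such tests), and it differed by −0.09 between tumors given the antibody and those not (exact permutation p = 0.853). Without Comb replicate 3 these differences were 1.21 (exact permutation p = 0.00866) and −0.23 (p = 0.665). Ccl12 supplied at most 7.47% of the ligand counts in each Con and SFIH tumor, while PD replicates 1 to 3 had 9.71%, 5.19% and 20.1%. Comb replicates 1 to 3 had 5.33%, 14.1% and 42.4%. Its mean share was 16.2% in tumors given the antibody and 5.75% in the others (exact permutation p = 0.0455, 0.477 after adjustment over the same 21 tests), and p was 0.0714 without Comb replicate 3. Ccl2 supplied 40.1% to 78.1% in 11 tumors and 22.0% in Comb replicate 3. The libraries come from transcript 3′ ends, so counts are not expected to scale with transcript length. Whether the 3 genes are counted with equal efficiency was not tested, and Ccl2 counts carry the limit from Gm17268 given above.

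**Figure D3:**
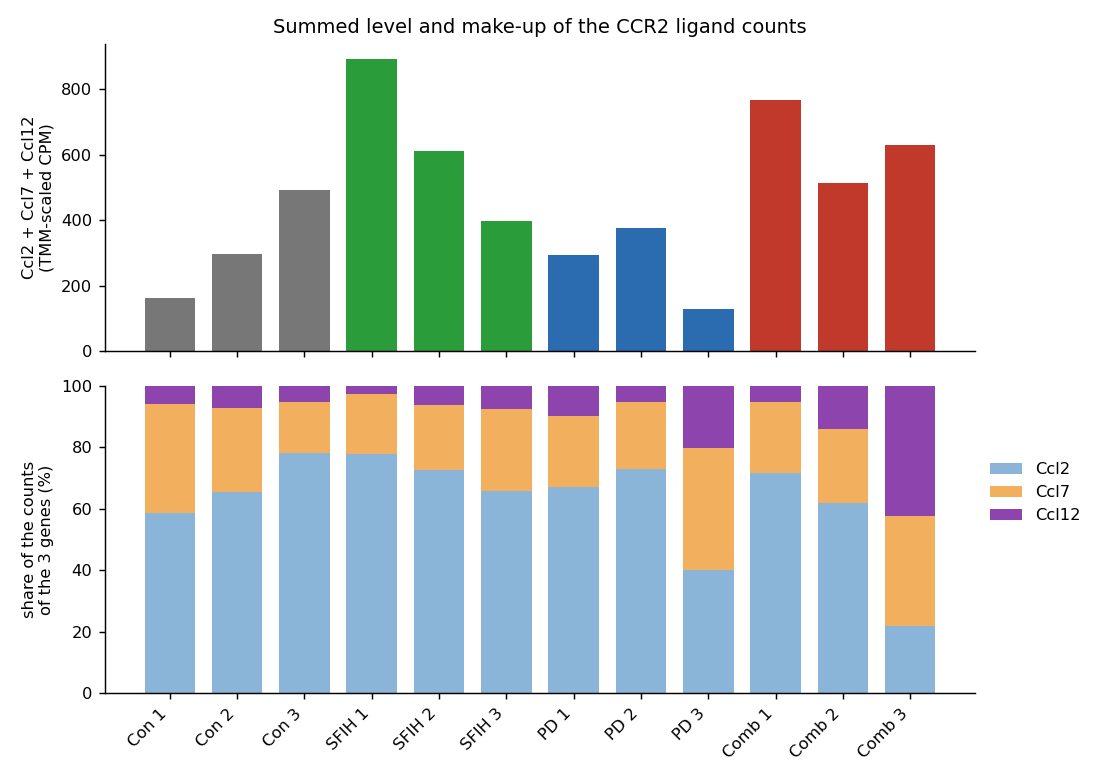
Summed level of Ccl2, Ccl7 and Ccl12 (top, TMM-scaled CPM) and the share of their counts held by each ligand (bottom, percent, stacked bars from 0) in each of the 12 tumors. Ccl2 holds the largest share in 11 tumors, and in Comb replicate 3 Ccl12 holds 42.4%.

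Ly6c2, which encodes part of the Ly6C antigen of classical monocytes, was high in the Comb group without depending on Comb replicate 3. Its level was 60.4, 33.0 and 49.4 CPM in Con, 86.7, 112 and 57.8 CPM in SFIH, 60.3, 105 and 64.3 CPM in PD, and 189, 138 and 142 CPM in Comb tumors. The Comb tumors lay above the other 9, although on CPM without TMM scaling SFIH replicate 2 (124 CPM) lay above Comb replicates 2 (122 CPM) and 3 (108 CPM). The Comb mean was 156 ± 28.6 CPM (SD, n = 3) against 47.6 ± 13.8 CPM in Con. The log2 fold change was 1.72 (SE 0.32, interval 1.01 to 2.42), or 3.29-fold, and 1.78 without Comb replicate 3. edgeR gave an adjusted p of 0.0665 and DESeq2 4.62e-05, with 4.62e-05 to 0.241 over the alternatives. In Comb replicates 1 and 2 the summed macrophage markers were 1068 and 3931 CPM (547 to 928 CPM in Con), the T cell markers 37.4 and 133 CPM (24.0 to 40.5 CPM) and the fibroblast markers 2896 and 11681 CPM (2119 to 2591 CPM), and their part in the Ly6c2 result was not tested.

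The single agents gave smaller differences in Ly6c2, at 0.84 for SFIH (SE 0.31, unadjusted p = 0.0209) and 0.69 for the antibody (SE 0.31, unadjusted p = 0.0508), each with an edgeR adjusted p of 1. Comb exceeded PD by 1.03 (1.09 without Comb replicate 3; SE 0.31, edgeR adjusted p = 0.243, with 0.0426 to 0.546 over the alternatives) and SFIH by 0.87 (0.93 without Comb replicate 3; SE 0.31, edgeR adjusted p = 0.177, with 0.0747 to 0.395 over the alternatives). The interaction was 0.19 (SE 0.44, interval −0.78 to 1.16; edgeR adjusted p = 0.919) and 0.25 without Comb replicate 3. The neighbouring Ly6c1 gave 84.5, 159 and 494 CPM in the Comb tumors, so Ly6c2 per Ly6c1 was 2.24 in Comb replicate 1 and 0.288 in Comb replicate 3. Of the 75-base stretches at the 3′ end of Ly6c2 transcripts, 21.9% also occur in Ly6c1, and how reads matching both were counted is not given in the sources used here, so the split between these genes is uncertain.

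Csf1 did not separate the groups. It was at 30.5, 52.5 and 44.0 CPM in Con, 43.8, 49.6 and 44.6 CPM in SFIH, 72.6, 34.5 and 57.7 CPM in PD, and 57.0, 66.6 and 29.7 CPM in Comb tumors. The log2 fold changes against Con were 0.12 for SFIH, 0.38 for PD and 0.27 for Comb (SE 0.33 each, edgeR adjusted p = 1, 1 and 0.599), and on CPM without TMM scaling the Comb difference had the opposite sign, at −0.042. Without Comb replicate 3, which had the lowest Csf1 of the 12 tumors, the Comb value was 0.55 and both remaining Comb tumors lay above the Con tumors.

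Csf2 had 0 counts in each of the 12 libraries. A count of 0 allows up to 3 counts, or 0.218 to 0.408 TMM-scaled CPM depending on the library, so Csf2 transcripts were not detectable at this depth, which covers counting error only. Csf2 overlaps Gm12223 on the opposite strand, and how reads in such overlaps were counted is not given in the sources used here.

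The receptor for CSF1 was higher in all PD and Comb tumors than in the Con tumors, while its ligand overlapped. Csf1r, the partner of Csf1 but not one of the 9 genes, was at 132, 59.2 and 121 CPM in Con, 120, 133 and 143 CPM in SFIH, 160, 283 and 241 CPM in PD, and 173, 672 and 970 CPM in Comb tumors. For Comb against Con the log2 fold change was 2.54 (SE 0.53, edgeR adjusted p = 0.0665, DESeq2 adjusted p = 0.000103, with 0.000103 to 0.241 over the alternatives) and 2.02 without Comb replicate 3. For PD against Con it was 1.13 (SE 0.51, unadjusted p = 0.0479, edgeR adjusted p = 1). Csf1r is also 1 of the 8 macrophage markers, whose sum was 982 to 1948 CPM in PD and 1068 to 14444 CPM in Comb against 547 to 928 CPM in Con tumors, and the part of macrophage number in its level was not tested. Csf1r per Csf1 was 32.7 in Comb replicate 3 and 1.13 to 10.1 in the other 11 tumors.

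The fractalkine pair showed no separation of groups. Cx3cr1 was at 54.3, 21.3 and 50.8 CPM in Con, 43.4, 72.2 and 55.5 CPM in SFIH, 66.0, 44.7 and 77.8 CPM in PD, and 44.0, 99.9 and 22.6 CPM in Comb tumors. Against Con the log2 fold changes were 0.44, 0.58 and 0.40 in that order (SE 0.50 each, edgeR adjusted p = 1, 1 and 0.606), and the Comb difference turned to −0.34 without Comb replicate 2 and to −0.013 on CPM without TMM scaling. The gene model of Cx3cr1 overlaps 9 other genes, which limits how far its counts can be assigned.

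Cx3cl1 had the lowest mean of the 8 members with counts in each of the 4 groups. It was at 17.4, 11.6 and 22.3 CPM in Con, 35.6, 16.9 and 9.17 CPM in SFIH, 11.7, 12.4 and 13.2 CPM in PD, and 18.2, 9.89 and 4.07 CPM in Comb tumors. The log2 fold changes were 0.27, −0.46 and −0.67 (SE 0.54 each, edgeR adjusted p = 1, 1 and 0.437), and the Comb value was −0.28 without replicate 3. The 2 receptors parted in that tumor, where Cx3cr1 per Ccr2 was 0.0657 against 0.459 to 2.49 in the other 11.

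**Figure D4:**
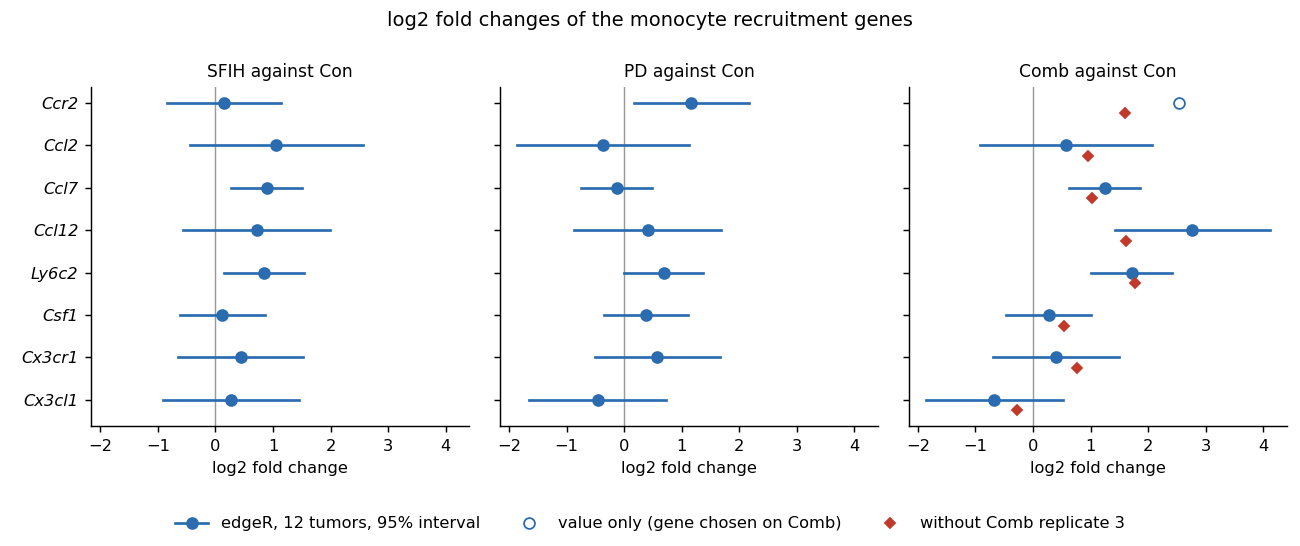
Log2 fold change against Con (horizontal) from edgeR, with 95% confidence intervals, for the 8 tested members in SFIH, PD and Comb tumors, and diamonds for the values without Comb replicate 3. The intervals of Ccl7 and Ly6c2 lie above 0 with SFIH, that of Ccr2 with the antibody, and those of Ccl7, Ccl12 and Ly6c2 with both agents, while Ccr2 in Comb has an open point and no interval because it was chosen there.

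Counted over members, none of the 8 tested had an edgeR adjusted p under 0.05 in any of the 8 comparisons, and the share of all 13464 genes past that threshold was 0% in each. Before adjustment edgeR had p under 0.05 for 303 genes for SFIH against Con, 537 for PD against Con and 3406 for Comb against Con, 2424 for Comb against PD and 2559 for Comb against SFIH, 2523 for any antibody, 1953 for any SFIH and 344 for the interaction. DESeq2 called 4, 6, 1998, 415, 1157, 1250, 268 and 1 genes in the same order, and limma-voom 0, 83, 2719, 1074, 2019, 2787, 1425 and 0. In DESeq2 the tested members called higher were Ccl7, Ccl12 and Ly6c2 for Comb against Con (12% of all genes), Ccl7 and Ccl12 for Comb against PD (2.49%), Ccl12 for Comb against SFIH (7.87%), Ccl12 and Ly6c2 for any antibody (7.74%), and Ccl7, Ccl12 and Ly6c2 for any SFIH against none (1.09%). Without Comb replicate 3 DESeq2 called Ccl7, Ccl12 and Ly6c2 for Comb against Con (4.03%), Ccl7 for Comb against PD (0.0535%), none for Comb against SFIH (0.629%), Ly6c2 for any antibody (5.38%), Ccl7, Ccl12 and Ly6c2 for any SFIH (1.51%), Ccr2 for PD against Con (0.316%) and Ccl7 for SFIH against Con (0.386%). These DESeq2 shares are of the genes that were given an adjusted p. They numbered 13425 with all tumors, and from 5963 (SFIH against Con) to 13610 (PD against Con among others) without Comb replicate 3.

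Members were also counted by whether the TMM-scaled levels of the groups overlapped. For SFIH against Con, 1 of 8 members (Ccl7) was higher in all treated tumors, compared with 8.55% of all genes, and for PD against Con 1 of 8 (Ccr2), compared with 9.37%, which are shares near the background. For Comb against Con it was 4 of 8 (Ccr2, Ccl7, Ccl12 and Ly6c2), beside 11.7% of all genes. The same 4 were higher without overlap for Comb against PD, beside 6.21%, and Ccr2, Ccl12 and Ly6c2 for Comb against SFIH, beside 7.64%. On CPM without TMM scaling Ly6c2 overlapped between Comb and SFIH (exact permutation p = 0.3), while the other members that separated were as above, beside 7.55%, 5.76%, 7.6%, 4.25%, 4.65%, 0.661% and 0.379% of all genes for SFIH against Con, PD against Con, Comb against Con, Comb against PD, Comb against SFIH, the antibody and SFIH. Over 6 tumors against 6, Ccr2 alone separated for the antibody (1.12% of genes) and Ccl7 alone for SFIH (0.676% of genes). No member was lower without overlap in these 7 comparisons. Ccr2 was chosen on the Comb tumors, so its part in the counts with that group is fixed by the choice. Without Comb replicate 3 the counts were 5 of 8 for Comb against Con (16.2% of genes), with Csf1 added, 5 of 8 for Comb against PD (9.49%), with Ccl2 added, and 4 of 8 for Comb against SFIH (10.6%), with Csf1 added, and Ccr2 for the antibody (1.35%) and Ccl7 for SFIH (1.07%) stayed the only members to separate.

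Within the wider CCR2 system, 12 of 14 listed receptors, ligands and scavengers were tested, and none passed in edgeR. For Comb against Con all 12 lay above 0, all 12 had an unadjusted p under 0.05 (17.996% of all genes did so upward), all 12 had no overlap (11.7% of all genes), and DESeq2 called all 12 higher (12% of all genes), with a median log2 fold change of 3.42 against −0.03 over all genes and 1.69 without Comb replicate 3. Ccl8 (MCP-2) was at 72.3, 148 and 105 CPM in Con, 71.8, 95.9 and 241 CPM in SFIH, 130, 648 and 312 CPM in PD, and 310, 2502 and 26931 CPM in Comb tumors. Its log2 difference between Comb and PD was 4.77 (SE 1.32, edgeR adjusted p = 0.243) and 1.95 without Comb replicate 3. Ccl11 (eotaxin), the gene between Ccl7 and Ccl12, was at 1.14, 3.21 and 5.44 CPM in Con, 11.1, 12.5 and 11.04 CPM in SFIH, 2.13, 11.6 and 3.70 CPM in PD, and 19.1, 38.2 and 340 CPM in Comb tumors. Its Comb against Con value was 5.34 (SE 1.12, edgeR adjusted p = 0.0665), or 3.13 without that tumor. Ccr3, the eotaxin receptor beside Ccr2, was at most 0.602 CPM in Con and at 3.20, 20.9 and 220 CPM in Comb tumors, and Ackr1, an atypical receptor that binds chemokines without signalling, was at most 0.201 CPM in Con and between 1.92 and 5.52 CPM in Comb.

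Among 10 tested CSF receptors and other ligands, the median log2 fold change for Comb against Con was 2.52 (1.68 without Comb replicate 3), with 9 above 0, 8 at an unadjusted p under 0.05 upward (17.996% of all genes) and 8 called higher by DESeq2 (12% of all genes). Csf2ra, the GM-CSF receptor alpha chain, had 2.52 (1.78 without that tumor). Csf3r, the G-CSF receptor, was at most 0.401 CPM in Con and between 1.55 and 2.40 CPM in Comb tumors, a log2 fold change of 3.05 (SE 0.69, edgeR adjusted p = 0.0665) and 2.84 without that tumor, at low counts throughout. The 13 CSF signalling genes had a median of 1.24 (0.65), with Fes at 2.08 (1.45) and Tyrobp at 3.43 (1.72). Of these 13, 7 had an unadjusted p under 0.05 upward (17.996% of all genes) and 1 downward, while 3406 of all 13464 genes had such a p in either direction. For PD against Con the medians of these lists were 1.35 and 0.45, and for SFIH against Con 0.29 and 0.00.

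Classical monocyte genes other than Ly6c2 had a Comb against Con median of 1.21 over 18 genes (0.83 without Comb replicate 3), and 17 lay above 0, 12 at an unadjusted p under 0.05 upward (17.996% of all genes) and 11 called higher by DESeq2 (12% of all genes). Chil3, a chitinase-like protein of monocytes and macrophages, was at 5.79, 2.51 and 4.37 CPM in Con, 14.1, 12.3 and 11.5 CPM in SFIH, 10.4, 22.3 and 14.6 CPM in PD, and 31.7, 72.4 and 247 CPM in Comb tumors. Its lowest treated tumor lay above its highest Con tumor, and the share of all genes for which this held was not counted. Its Comb value was 4.79 (SE 0.70, edgeR adjusted p = 0.0665) and 3.61 without Comb replicate 3, where the edgeR adjusted p was 0.0282. Plac8 had 1.30 (1.10) and Gda 3.22 (1.84). Non-classical monocyte genes had a median of 0.73 over 12 genes (0.50 without that tumor), with 8 above 0 and 4 below. Of the 12, 5 had an unadjusted p under 0.05 upward (17.996% of all genes). Among these 5 were Pglyrp1 at 4.27 (1.54) and Cd36 at 4.01 (2.21).

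Genes of adhesion and extravasation had a median of 1.41 over 13 genes (0.87 without Comb replicate 3). At an unadjusted p under 0.05, 10 were upward (17.996% of all genes, as for each upward count here) and 1 downward. Over all genes, 3406 of 13464 had such a p in either direction. The integrin chains Itgb2, Itgam and Itga4 had 2.66 (1.80), 1.90 (1.40) and 2.08 (1.54). The 6 genes listed around the CX3C axis, which include processing genes and a related ligand and receptor, had a median of 0.59 (0.33). Only 2 of them had an unadjusted p under 0.05, both upward. They were the related ligand Cxcl16 at 2.29 (1.51) and its receptor Cxcr6 at 3.10 (2.08), a CXC pair outside the CX3C axis itself. Macrophage genes had the second highest median of these 8 lists, 3.12 over 13 genes (1.59), and all 13 had an unadjusted p under 0.05, with the scavenger receptor Cd163 at 4.11 (2.65) and the Fc receptor Fcgr1 at 1.53 (1.25). Without TMM scaling the median of all genes moved from −0.03 to −0.29 for Comb against Con, and values there are best read relative to it.

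**Figure D5:**
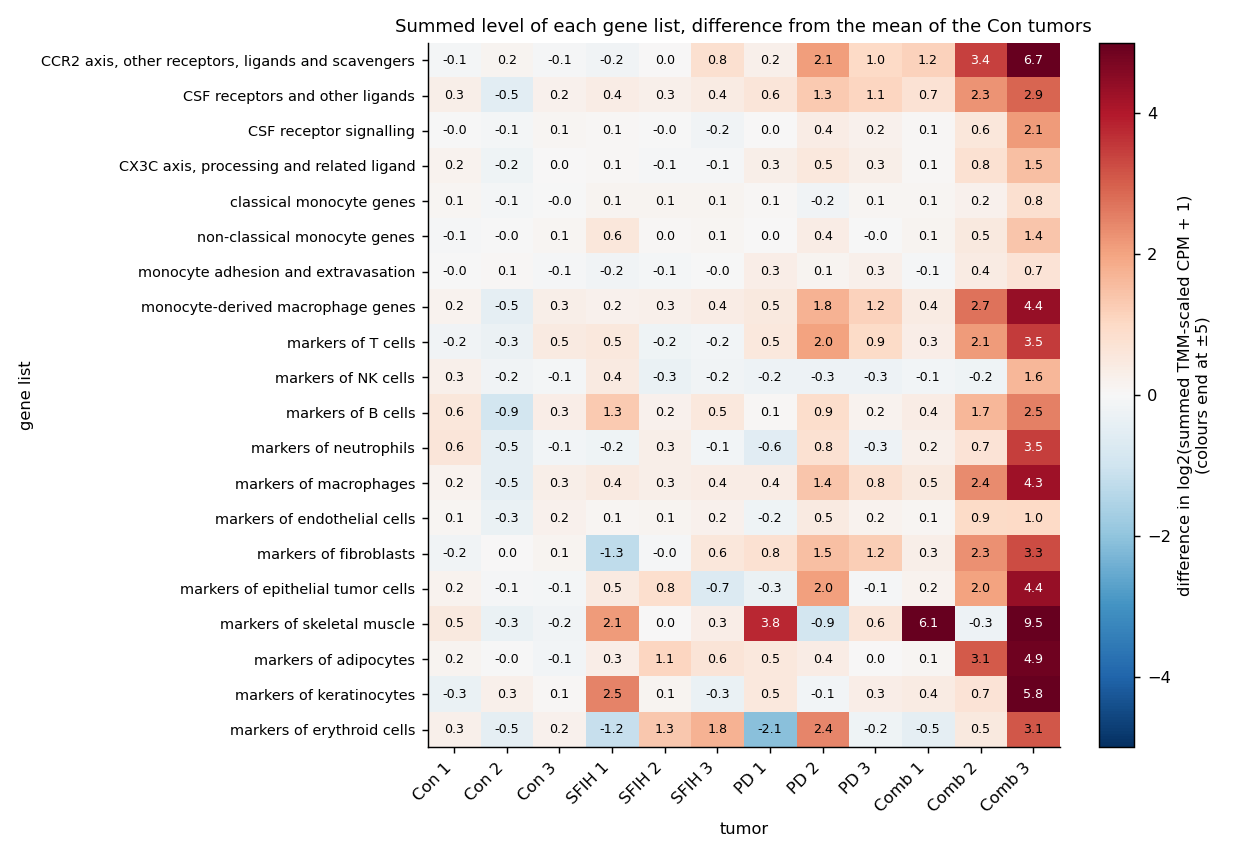
Heat map of the summed level of each gene list (rows) in each tumor (columns), coloured by the difference in log2(summed TMM-scaled CPM + 1) from the mean of the Con tumors, with colours ending at ±5. Comb replicate 3 is the highest tumor in all 20 lists, those of other cell types included.

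Across tumors the members did not follow 1 pattern, and the correlations here are of log2(CPM + 1) and serve as description only, since libraries, groups and Comb replicate 3 are shared by all of them. Ccl2 and Ccl7 had r = 0.62 over 12 tumors and 0.90 over the 11 without Comb replicate 3. Ccr2 and Ly6c2 had 0.69 and 0.71, Ccr2 and Ccl12 0.80 and 0.45, and Ccr2 and Ccl2 −0.14 and 0.06.

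Of 12108 genes with a mean of at least 20 counts, the 5 with a pattern most like Ccr2 were Cryab, Mustn1, Samhd1, Dennd1c and Ccdc28b, with r of 0.96 to 0.97 over 12 tumors and 0.91 to 0.93 over 11. For Ccl2 they were Hspbap1, Gpn2, Tmem209, Hacd2 and Polr3k (0.89 to 0.92 over 12). For Csf1 they were Rbbp7, Bcl2l13, Lap3, Ctbp2 and Fam53c (0.89 to 0.93 over 12). For Cx3cr1 they were Rdh10, Gm12250, Nlrc5, Lrrcc1 and Haus7 (0.83 to 0.90 over 12). Cryab and Mustn1 are genes of muscle. The summed skeletal muscle markers were 5.92 to 11.1 CPM in Con and 7.87 to 37.1 CPM in SFIH tumors. They were 117, 3.54 and 12.3 CPM in PD replicates 1 to 3, and 592, 6.21 and 6050 CPM in Comb replicates 1 to 3. The part of muscle in the Ccr2 levels was not tested.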

How the data were processed

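RNA of whole MC38 tumors had been made into QuantSeq 3′ libraries and sequenced as 75-base single reads. The authors deposited 1 table of raw counts per gene for 12 tumors, not normalized. The aligner, genome build and use of strand in counting are not given in the sources used here. No line of the table named no gene (0 lines). Counts were filtered with filterByExpr, scaled by TMM (factors 0.760 to 1.12) and fitted in 1 model of 4 groups with edgeR 4.0.16 (quasi-likelihood test, R 4.3.3), with Benjamini-Hochberg adjustment over 13464 genes in each of 8 comparisons and a threshold of 0.05. The method was tested on simulated data with the same spread for all genes and no outlying tumor. That test therefore does not cover data with a tumor like Comb replicate 3. DESeq2 1.42.0, limma 3.58.1 (voom with quality weights), edgeR with relative log expression factors or a robust spread, no filter on low counts or a mean of at least 50, fits and levels without TMM, a pseudocount of 0.5 in place of 1, a replicate block and leaving out each tumor were the alternatives. Levels of single genes were compared by two-sided exact permutation tests of log2(TMM-scaled CPM + 1) with Python 3.11.15 and scipy 1.17.1. Intervals and floors cover counting or replicate error only. Named genes were the 9 members, up to 3 genes per list and comparison with the smallest p, and the 5 genes most correlated with Ccr2, Ccl2, Csf1 or Cx3cr1. Not all genes that this rule names are reported here, and the text gives mainly those of Comb against Con. The members and all lists were chosen with earlier results of these data known, so no p was adjusted over a list alone. Samples were grouped by their treatment labels. Promoter sequences are those of RefSeq on GRCm38.p6.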

Additional observations from a re-analysis of the deposited data

How the results depend on the processing

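No gene passed in edgeR with all tumors, but tool and tumors decided how many did otherwise. DESeq2 called 4 genes for SFIH against Con, 6 for PD against Con, 1998 for Comb against Con, 415 for Comb against PD, 1157 for Comb against SFIH, 1250 for any antibody, 268 for any SFIH and 1 for the interaction, and limma-voom called 83, 2719, 1074, 2019, 2787 and 1425 for PD against Con, Comb against Con, Comb against PD, Comb against SFIH, any antibody and any SFIH. Leaving out 1 tumor at a time in edgeR gave 0 to 3943 genes for Comb against Con, 0 to 2100 for Comb against PD, 0 to 3118 for Comb against SFIH, 0 to 2370 for any antibody, 0 to 281 for any SFIH and 0 for the other 3 comparisons; the highest counts came without Comb replicate 1, and without Comb replicate 3 there were 5 for Comb against Con and 2 for any antibody. DESeq2 without Comb replicate 3, an alternative chosen after seeing the data, called 56, 68, 740, 23, 96, 994 and 450 genes for SFIH against Con, PD against Con, Comb against Con, Comb against PD, Comb against SFIH, any antibody and any SFIH. The cause of these differences was not tested.

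The replicate numbers are shared by the groups, and the deviations of same-numbered tumors correlated from −0.29 to 0.41 over 18 pairs. Differently numbered tumors were not correlated for reference, so these values cannot show whether the numbers pair the tumors. A fit with the replicate block called 0 genes in each comparison, as did the main fit without it. Several log2 differences changed sign. Ccr2 for SFIH against Con ran from −0.026 to 0.24 over the tumors left out, with −0.011 in edgeR without SFIH replicate 1 (levels −0.031 to 0.25), Ccl2 for PD against Con from −0.86 to 0.26 (levels −0.95 to 0.27, with 0.062 in edgeR without PD replicate 3 and 0.041 in levels without Con replicate 3), and Ccl7 for PD against Con from −0.30 to 0.026 (levels to 0.046). Csf1 for SFIH against Con ran from −0.073 to 0.30 (levels −0.063 to 0.32), and its Comb against Con level from −0.0038 to 0.57 and −0.042 without TMM. Cx3cr1 for Comb against Con ran from −0.34 to 0.77 (levels −0.29 to 0.75, with −0.17 without Con replicate 2 and −0.013 without TMM). Cx3cl1 for SFIH against Con ran from −0.39 to 0.62 (levels −0.38 to 0.55, with −0.14 without Con replicate 2) and was −0.046 in limma-voom.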
